A study of Homo sapiens with 8 samples.

Results

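The mitochondrial protein genes described here are the nuclear genes whose symbols begin with NDUF, COX followed by a digit, UQCR, SDH, ATP5, MRPL, MRPS, TIMM, TOMM, SLC25, ATAD3, MTIF or MTERF, and that are named beside at least 1 differential H3K79 methylation region. They numbered 116 of 5820 genes named in all. Of these, 115 are protein-coding in RefSeq and 1, NDUFV2-AS1, is a noncoding antisense gene. Members were chosen by name and not by their scores, though with earlier results of these data known. The symbols did not always match the label: SLC25A17 is a carrier of the peroxisome, TOMM34 is a cytosolic co-chaperone, TIMMDC1 helps to assemble complex I, and NDUFA4 is now counted with complex IV.

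The data are chromatin immunoprecipitation followed by sequencing (ChIP-seq) against histone H3 with lysine 79 dimethylated (H3K79me2) or trimethylated (H3K79me3). The cells were MOLM-13, an established acute myeloid leukemia line with an MLL fusion gene, with the hairpin ShLAMP5-AS1, which is named for the noncoding antisense RNA of the LAMP5 locus, or with ShNC as control. There were 8 libraries, with 1 ChIP and 1 input library for each mark and condition, so the groups had no replicates, no test was possible, and every interval given here covers counting error only. Parts of the labels go against the titles, in that the treatment text speaks of KLF11 and YAP siRNAs, the transfection field of the controls names a control siRNA, and the growth field describes cells grown from a patient-derived xenograft. Groups were taken from the titles, and the cells from the cell type field. Whether ShNC and ShLAMP5-AS1 cells were 1 clone or a pool is not stated in the labels.

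For each mark the authors deposited 1 table of differential regions from the comparison of ShNC with ShLAMP5-AS1, with a signed score per region. The score has no stated unit, and the sources used here do not say which sign marks the higher signal in which cells. For this reason the text keeps each sign as the authors wrote it and speaks of neither gain nor loss. Score sizes were at least 5.08 over all H3K79me2 regions and at least 5.01 over all H3K79me3 regions, so a gene without a region is not shown to be unmarked or unchanged. The tables hold no value per library and no read totals, so depth is unknown and signal in the conditions cannot be shown side by side. Coordinates are those deposited. Only 25 of 262 member entries in introns (9.54%) lay inside the gene's GRCh38 bounds, so the build is not GRCh38, and hg19 is the other build in the submitters' processing notes.

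Oxidative phosphorylation is carried out in the inner mitochondrial membrane. Complexes I (NDUF subunits) and II (SDH) feed electrons into the chain, complexes III (UQCR) and IV (COX) pass them to oxygen, and complex V (ATP5) makes ATP from the proton gradient. A few core subunits are encoded by mitochondrial DNA and made by mitochondrial ribosomes, whose own proteins (MRPL in the large subunit, MRPS in the small one) are nuclear. Proteins made in the cytosol enter through the TOMM complex of the outer membrane and the TIMM complexes further in, and SLC25 carriers move metabolites across the inner membrane. H3K79 methylation is written by DOT1L, which MLL fusion proteins recruit, and it lies mainly over the first part of transcribed genes.

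In all, 29 protein-coding members had a region in their annotated promoter, and RefSeq promoter windows were at hand for 24 of them. The noncoding NDUFV2-AS1 also had promoter regions and is not in this count. Each window runs from 250 bases before the start of the gene to 50 after it, on GRCh38.p14, and so cannot be laid over the deposited regions, which are in another build. The 6 windows below are shown because they belong to members with a promoter region that the results return to and because each holds a match to a motif searched. Capitals mark the matches. The motifs were GCGCANGCG, an NRF1-type site, CCGGAAG, an ETS-type site of the kind bound by GABPA, and AAGATGGCG, a YY1-type site, each on both strands. These factors are known as regulators of nuclear genes for mitochondrial proteins.
SDHA (chr5:218070-218369, plus strand): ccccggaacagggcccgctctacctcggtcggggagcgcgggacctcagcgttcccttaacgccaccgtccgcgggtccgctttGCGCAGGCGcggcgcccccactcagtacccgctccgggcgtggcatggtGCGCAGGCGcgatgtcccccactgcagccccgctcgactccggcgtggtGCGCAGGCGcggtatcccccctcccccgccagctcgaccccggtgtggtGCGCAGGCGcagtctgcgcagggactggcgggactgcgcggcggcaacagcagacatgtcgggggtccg
TOMM20 (chr1:235128788-235129087, minus strand): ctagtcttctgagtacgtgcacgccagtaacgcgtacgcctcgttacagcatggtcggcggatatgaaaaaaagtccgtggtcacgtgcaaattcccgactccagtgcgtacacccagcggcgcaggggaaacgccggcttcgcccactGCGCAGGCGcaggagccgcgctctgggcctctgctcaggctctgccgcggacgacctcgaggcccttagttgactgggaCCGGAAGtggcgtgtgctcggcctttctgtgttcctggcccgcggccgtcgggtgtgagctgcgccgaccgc
MRPL20 (chr1:1407244-1407543, minus strand): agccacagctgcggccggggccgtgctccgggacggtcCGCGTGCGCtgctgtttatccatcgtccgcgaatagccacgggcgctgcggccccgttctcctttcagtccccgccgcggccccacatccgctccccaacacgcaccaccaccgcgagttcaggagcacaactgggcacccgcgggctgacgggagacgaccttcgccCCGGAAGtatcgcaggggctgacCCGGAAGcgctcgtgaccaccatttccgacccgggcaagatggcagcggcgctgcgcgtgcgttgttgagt
UQCRC1 (chr3:48609597-48609896, minus strand): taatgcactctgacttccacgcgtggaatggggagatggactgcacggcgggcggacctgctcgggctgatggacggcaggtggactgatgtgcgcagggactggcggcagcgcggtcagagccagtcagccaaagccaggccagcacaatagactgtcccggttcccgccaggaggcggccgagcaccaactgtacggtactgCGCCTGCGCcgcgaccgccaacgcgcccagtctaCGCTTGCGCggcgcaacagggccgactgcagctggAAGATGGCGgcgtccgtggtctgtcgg
SDHAF2 (chr11:61429874-61430173, plus strand): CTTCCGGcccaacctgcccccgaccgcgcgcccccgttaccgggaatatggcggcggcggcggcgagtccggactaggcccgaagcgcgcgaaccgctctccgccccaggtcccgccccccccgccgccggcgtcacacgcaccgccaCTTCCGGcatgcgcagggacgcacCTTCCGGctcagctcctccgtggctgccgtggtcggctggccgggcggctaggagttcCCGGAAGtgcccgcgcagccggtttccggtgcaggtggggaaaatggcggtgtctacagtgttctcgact
MRPL33 (chr2:27771469-27771768, plus strand): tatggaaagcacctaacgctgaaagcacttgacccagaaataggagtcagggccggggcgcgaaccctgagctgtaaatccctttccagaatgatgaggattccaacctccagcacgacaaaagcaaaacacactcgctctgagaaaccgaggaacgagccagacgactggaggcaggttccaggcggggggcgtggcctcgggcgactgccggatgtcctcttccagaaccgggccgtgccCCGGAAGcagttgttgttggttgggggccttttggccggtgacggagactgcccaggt

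The SDHA window holds 4 NRF1-type matches, all on the printed strand. TOMM20 has 1 NRF1-type and 1 ETS-type match, and MRPL20 has 1 NRF1-type and 2 ETS-type matches. UQCRC1 holds 2 NRF1-type matches and 1 YY1-type match. SDHAF2 holds 4 ETS-type matches, and MRPL33 holds 1. Over the 24 members with a promoter region, 5 windows held the NRF1-type motif, 9 the ETS-type motif and 3 the YY1-type motif. These were 20.8%, 37.5% and 12.5% of the windows. Among the 230 genes with these prefixes that have a window, whether or not they have a region, the shares were 23.0%, 33.9% and 10.9%. Over all 15843 protein-coding genes with a window they were 11.02%, 14.2% and 2.74%. The shares of the members with a promoter region were thus close to those of their gene families as a whole, with a count too small to set them apart (95% Wilson interval 9.24% to 40.5% for the NRF1-type motif). Matches of different motifs overlapped 5 times over all promoters. A match is a run of letters and not evidence of binding.

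The promoter regions of these 6 genes did not all carry the same sign. SDHA, the flavoprotein subunit of complex II, had a region at its promoter and intron that the authors' deposited table scores at 10.90 for H3K79me3, in a CpG island (chromosome 5, 218731 to 218802). TOMM20, a receptor that reads the targeting signals of imported proteins, had a promoter region that the authors' deposited table scores at -15.26 for H3K79me3 (chromosome 1, 235291725 to 235292027). For MRPL20, a protein of the large mitoribosomal subunit, the promoter score for H3K79me3 in the authors' deposited table was -7.53. The positive region of SDHA therefore stood against negative promoter regions in TOMM20 and MRPL20 for the same mark. UQCRC1, a core subunit of complex III, had a promoter score of -8.0 and SDHAF2, the factor that attaches FAD to SDHA, one of -8.32, both for H3K79me3 in the authors' deposited table. MRPL33, another protein of the large subunit, was positive for H3K79me2 at its promoter, at 17.38 in the authors' deposited table and in a CpG island (chromosome 2, 27994877 to 27994964). The SDHA region was also assigned to CCDC127, the promoter region of TOMM20 to SNORA14B and that of SDHAF2 to CPSF7. None of these can be given to a single gene. SDHA has near-identical pseudogene copies, and how the authors treated reads that fit several places is not stated, so its region is uncertain.

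How many of the families' genes carried a region was counted over the 269 protein-coding RefSeq genes with these prefixes, named by their current symbols. This set includes ATP5MJ and TIMM29, which the deposited tables list under older names outside the rule, and leaves out NDUFA4 and ATP5S, whose current symbols no longer have the prefixes. For H3K79me3, 83 of the 269 genes (30.9%, interval 25.6% to 36.6%) had a region, and the share over all 20043 protein-coding genes was 18.0%. For H3K79me2 the count was 67 (24.9%, interval 20.1% to 30.4%), beside 17.0% of all genes. Both marks had a region in 35 of the 269 genes, and in 9.85% of all genes. The remaining 154 genes had a region of neither mark.

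By sign, 80 of the 269 genes (29.7%) had a negative H3K79me3 region, and 17.6% of all genes did. A positive H3K79me3 region was found in 5 of them (1.86%), beside 1.05% of all genes. For H3K79me2, 42 (15.6%) had a negative region and 34 (12.6%) a positive one, beside 11.6% and 10.0% of all genes. Each of these shares lay above that of all genes. In percentage points the widest gap was that of negative H3K79me3 regions. Such a gap is small where few genes have a region, as for positive H3K79me3 regions, and that share rests on 5 genes. How far transcription, gene length or shared promoters enter these shares was not tested. The counts by family and by length follow.

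The share with an H3K79me3 region was highest in complex III, with 7 of 9 genes (77.8%, interval 45.3% to 93.7%). UQCRC2, a core subunit, had a region of H3K79me2 only, and UQCRHL was the sole complex III gene with neither mark. In complex I, 13 of 38 subunit genes (34.2%) had an H3K79me3 region and 10 had one of H3K79me2. Complex IV had 7 of 17 subunit genes with H3K79me3 regions, and complex V 6 of 20. For complexes I to V with their assembly factors, 44 of 109 genes (40.37%, interval 31.6% to 49.8%) had an H3K79me3 region and 27 (24.8%) an H3K79me2 region. For the mitoribosome the counts were 22 of 77 (28.6%) and 19 of 77 (24.7%). Low shares for H3K79me3 were found in the MTIF and MTERF factors, with 0 of 6 genes (interval up to 39.0%), and in the SLC25 carriers. The carriers had an H3K79me3 region in 6 of 48 genes (12.5%, interval 5.86% to 24.7%), below the 18.0% of all genes though the interval holds that value. They had H3K79me2 regions in 9 genes (18.8%), beside 17.0% of all genes. Differences between families were not tested, and most intervals overlap, as the plot of shares by family shows.

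**Figure D1:**
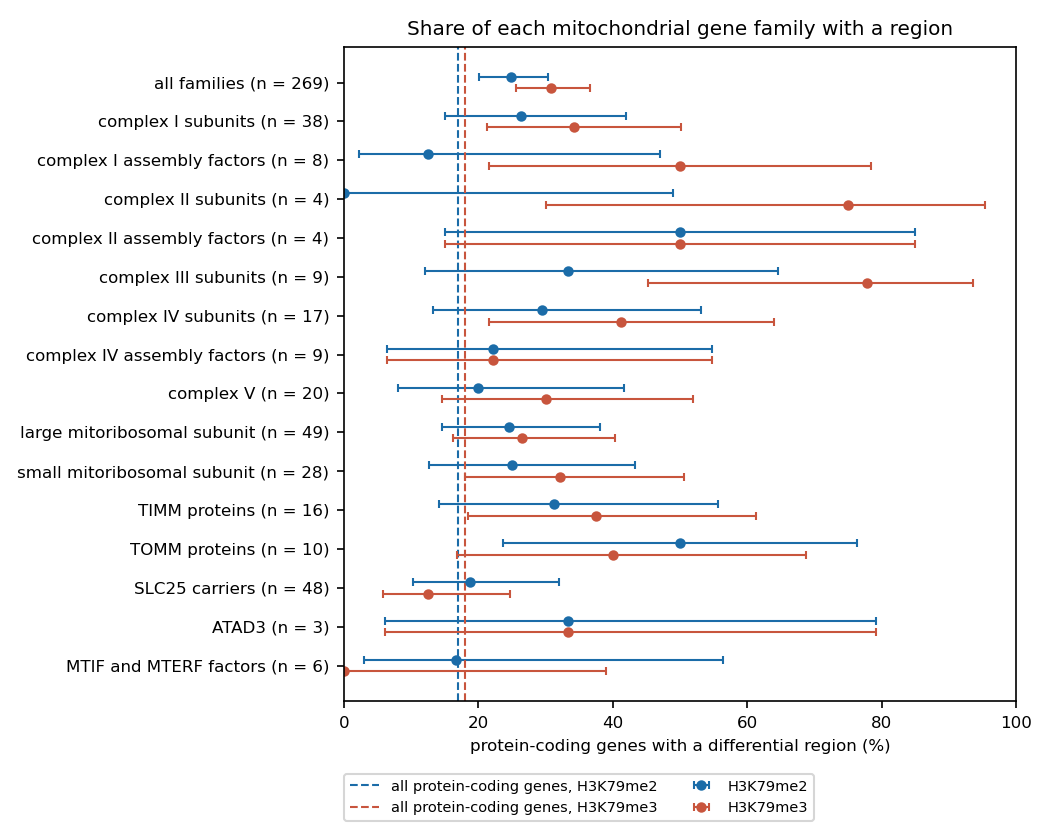
Percentage of the protein-coding RefSeq genes of each family that had at least 1 differential region (x axis), with 95% Wilson intervals for counting error only; n is the number of genes. Dashed lines give the share over all protein-coding genes, 17.0% for H3K79me2 and 18.0% for H3K79me3; complex III stands highest for H3K79me3, at 77.8%, and the SLC25 carriers lie near or below the lines.

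The mitochondrial families are made of short genes, with a median RefSeq length of 12.3 kb against 24.1 kb for all protein-coding genes. Longer genes had a region more often, so the shares were also read by length. Under 20 kb, 55 of 184 family genes (29.9%) had an H3K79me3 region, beside 9.51% of the 8840 other protein-coding genes of that length. For H3K79me2 the shares under 20 kb were 19.6% and 6.61%. In the band from 5 to 10 kb, 21 of 60 family genes (35.0%) had an H3K79me3 region, beside 9.23% of other genes. From 20 to 50 kb it was 21 of 59 (35.6%), beside 21.6%. From 50 to 100 kb the H3K79me3 shares were 30.8% and 25.8%, and over 100 kb 23.1% and 27.4%, with 13 family genes in each of these bands. Under 5 kb the H3K79me3 shares were 18.0% and 5.36%. In percentage points the gap for H3K79me3 was thus wider under 20 kb than from 20 to 50 kb, though narrower under 5 kb. In the longest bands the intervals of the families held the share of other genes. For H3K79me2 the families' share was above that of other genes in every band, and over 100 kb it was 38.5%, beside 28.3%, again with 13 family genes. The lengths are for GRCh38.p14 and serve only to group genes.

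**Figure D2:**
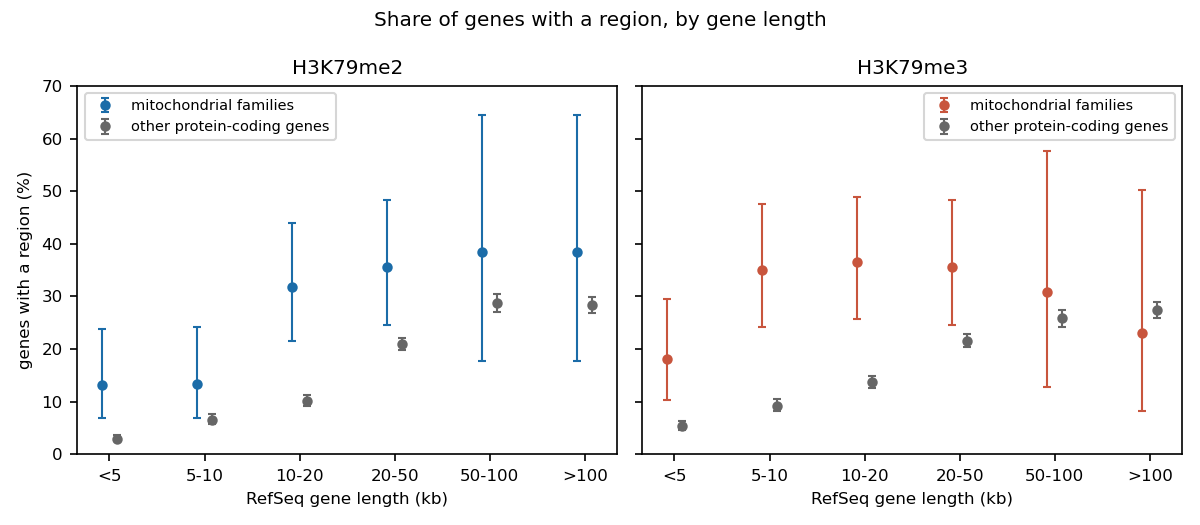
Percentage of genes with a differential region (y axis) by RefSeq gene length in kb (x axis), for the mitochondrial families (coloured) and all other protein-coding genes (grey), with 95% Wilson intervals. The H3K79me3 points of the families lie above those of other genes up to 50 kb, for example 35.0% against 9.23% from 5 to 10 kb, and below them over 100 kb.

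The 82 members with an H3K79me3 region held 184 regions between them, of which 179 were negative (97.3%, interval 93.8% to 98.8%). Over all 13666 H3K79me3 regions the negative share was 97.5%, so the members had the same near-uniform sign as the rest. The median score of the members' regions was -9.51 in the authors' deposited table, beside -10.19 over the whole table. Scores of members ran from -22.83 to 14.82 in the authors' deposited table, well inside the range of the whole table, -51.04 to 99.48. The most extreme scores of the table therefore lay in regions not assigned to members. With only negative regions there were 77 genes, with only positive regions 3, and with both signs 2.

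Complex I subunits had 42 H3K79me3 regions in 13 genes, all with a negative score. Most of them were in NDUFV2 and NDUFB9. NDUFV2, an iron-sulfur subunit of the NADH-oxidising module, had 13 regions over 14.8 kb, all in introns, with scores from -13.30 to -6.17 in the authors' deposited table. NDUFB9, an accessory subunit on chromosome 8, had 12 regions over 7.59 kb with scores from -21.58 to -7.29 in the authors' deposited table. Its regions covered 23.5% of that span, and 6 of them were also assigned to TATDN1, a neighbouring gene. The lowest, -21.58 in the authors' deposited table, lay in an intron (125552043 to 125552153) and is among those also assigned to TATDN1. The lowest score of an NDUFB9 region not shared with another gene was -16.32 in the authors' deposited table. NDUFS1, the largest iron-sulfur subunit of complex I, had 3 regions scored -10.19, -17.36 and -11.21 in the authors' deposited table. Of these, the regions scored -17.36 and -11.21 were both also assigned to EEF1B2, and the latter was at the promoter. NDUFA13, an accessory subunit, had a region scored -17.36 in the authors' deposited table that was not shared with any other gene. The remaining complex I subunits had 1 or 2 regions each. NDUFV2 and NDUFB9 thus stood apart by their number of regions.

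Among the complex I assembly factors, NDUFAF4 and NDUFAF5 each had 1 negative region, and the NDUFAF5 region was at a promoter shared with ESF1. NDUFAF6, on chromosome 8, had 1 intron region scored -20.19 in the authors' deposited table (96038198 to 96038311). NDUFAF2, a chaperone of late complex I assembly, had 1 positive region scored 6.17 in the authors' deposited table (chromosome 5, 60340245 to 60340311), close to the smallest size listed. Signs within this small group were therefore mixed.

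In complex II, SDHB, the iron-sulfur subunit, had regions scored -8.32 and -9.51, and SDHD, a membrane anchor, 1 region scored -8.32, in the authors' deposited table for H3K79me3. Only SDHA, described with its promoter, was positive, and SDHC, the other anchor, had no region of either mark. The assembly factors were negative throughout for this mark. SDHAF3, which assists SDHB maturation, had 6 intron regions with scores from -10.74 to -6.95 in the authors' deposited table, and SDHAF2 had 4, from -10.19 to -6.68.

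Complex III had 16 H3K79me3 regions in 7 genes, all negative, with a median score of -10.19 in the authors' deposited table. UQCRH, the hinge protein that helps cytochrome c1 pass electrons on, had 4 regions scored -10.25, -17.50, -9.08 and -12.52 in the authors' deposited table. They covered 30.6% of a span of 2.59 kb, and the widest was 361 bases (chromosome 1, 46771863 to 46772224). It is the widest region of any member. UQCRB, on chromosome 8, had 3 intron regions scored -10.19, -17.39 and -17.39 in the authors' deposited table, which covered 46.4% of 1.21 kb. UQCR11, a small accessory subunit, had 4 regions with scores from -14.96 to -5.08 in the authors' deposited table. These 3 genes had compact clusters, unlike SDHAF3 with 6 regions over 41.8 kb. UQCRFS1, the Rieske iron-sulfur protein, had 2 negative regions, and UQCR10, UQCRC1 and UQCRQ had 1 each.

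Complex IV had 12 regions in 7 subunit genes, all negative, with a median score of -11.68 in the authors' deposited table. COX7A2, a nuclear subunit, had 3 regions scored -12.52, -13.38 and -16.09 in the authors' deposited table within 1.34 kb. COX7A2L, which links complexes III and IV in supercomplexes, had 2 scored -13.30 and -12.01 in the authors' deposited table. COX4I1, a regulatory subunit, had a promoter region in a CpG island scored -8.0 in the authors' deposited table and shared with EMC8. Among assembly factors, COX20, a chaperone of a mitochondrially encoded subunit, had 3 regions scored -11.34, -12.52 and -10.74 in the authors' deposited table. COX16 had 2 negative regions, both also assigned to the readthrough gene SYNJ2BP-COX16, so they cannot be given to COX16 alone. No complex IV gene had a positive H3K79me3 region.

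In complex V, 9 regions in 5 genes were all negative. ATP5A1, the alpha subunit of the catalytic head, had 4 scored -16.22, -8.32, -8.0 and -10.19 in the authors' deposited table. The remaining regions were in ATP5F1, ATP5G2, ATP5J2 and ATP5O, with scores from -13.30 to -6.95 in the authors' deposited table. All H3K79me3 regions of complexes III, IV and V were thus negative, as were 97.5% of all H3K79me3 regions. The SDHA and NDUFAF2 regions were the only positive H3K79me3 regions of the respiratory complexes and their assembly factors.

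The mitoribosome had 48 H3K79me3 regions in 22 genes, 46 of them negative. MRPL1, a protein of the large subunit, alone held 16 over 51.2 kb, more than any other member. Its scores ran from -18.76 to 7.53 in the authors' deposited table, with 15 negative and 1 positive, and all were in introns. MRPL20 had 2 adjacent intron regions scored -20.19 and -20.12 in the authors' deposited table (chromosome 1, 1341781 to 1341887 and 1341951 to 1342077), besides its promoter region. MRPL33 had 3 scored -7.99, -13.73 and -16.32 in the authors' deposited table. MRPL18, also a large subunit protein, had 3 scored -8.86, -10.19 and -12.52 in the authors' deposited table, the first at a promoter shared with TCP1. The small subunit had fewer regions per gene, 12 in 9 genes. MRPS18C had 1 of each sign, -8.41 and 8.0 in the authors' deposited table, both in introns, with HELQ named beside the first and FAM175A beside the second. MRPS16 had regions scored -13.73 and -10.25 in the authors' deposited table, both shared with CFAP70 and DNAJC9-AS1. Apart from MRPL1, then, mitoribosomal genes had at most 3 regions each.

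Import genes held some of the lowest H3K79me3 scores. TOMM40, the channel of the outer membrane translocase, had the lowest score of any member, an intron region at -22.83 in the authors' deposited table (chromosome 19, 45395916 to 45395999). TOMM70A, a receptor for carrier precursors, had 5 regions scored -17.36, -9.51, -8.32, -13.73 and -18.76 in the authors' deposited table over 5.15 kb. TOMM20 had 4 in all, with scores from -15.26 to -8.32 in the authors' deposited table. The TOMM genes together had 12 regions, all negative, with a median of -12.52 in the authors' deposited table, the lowest median of any family. Here that rests on 4 genes. The TIMM genes had 8 negative regions in 5 genes. TIMM23, the channel of the inner membrane, and its near copy TIMM23B share 2 of these, scored -9.08 and -11.34 in the authors' deposited table, and the 5 regions listed under TIMM23B span 245 kb and include introns of NCOA4. Reads cannot be placed securely between such copies, so the values of both genes are uncertain. TIMM10B, TIMM13 and TIMMDC1 had 1 region each.

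The SLC25 carriers had 12 H3K79me3 regions in 6 genes, all negative. SLC25A3, the phosphate carrier that supplies complex V, had 4 scored -8.41, -13.73, -20.12 and -9.51 in the authors' deposited table. SLC25A40, a carrier linked to mitochondrial glutathione, had 4 scored -9.08, -9.46, -13.73 and -14.96 in the authors' deposited table, the last at a promoter. Its regions of -13.73 and -14.96 were both also assigned to DBF4. SLC25A37, the iron importer mitoferrin-1 of erythroid cells, had 1, as did SLC25A33, SLC25A41 and SLC25A6. SLC25A6, an ADP/ATP carrier, lies in the pseudoautosomal region and is listed on chromosome Y, so its place on X or Y is uncertain. ATAD3B, an inner membrane ATPase, had 1 positive region scored 14.82 in the authors' deposited table (chromosome 1, 1409039 to 1409107), the highest of any member. Its paralogs ATAD3A and ATAD3C lie beside it and are near copies, so this value is uncertain. The noncoding NDUFV2-AS1 had 3 negative regions, 1 of them also counted for NDUFV2 and the others shared with ANKRD12.

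**Figure D3:**
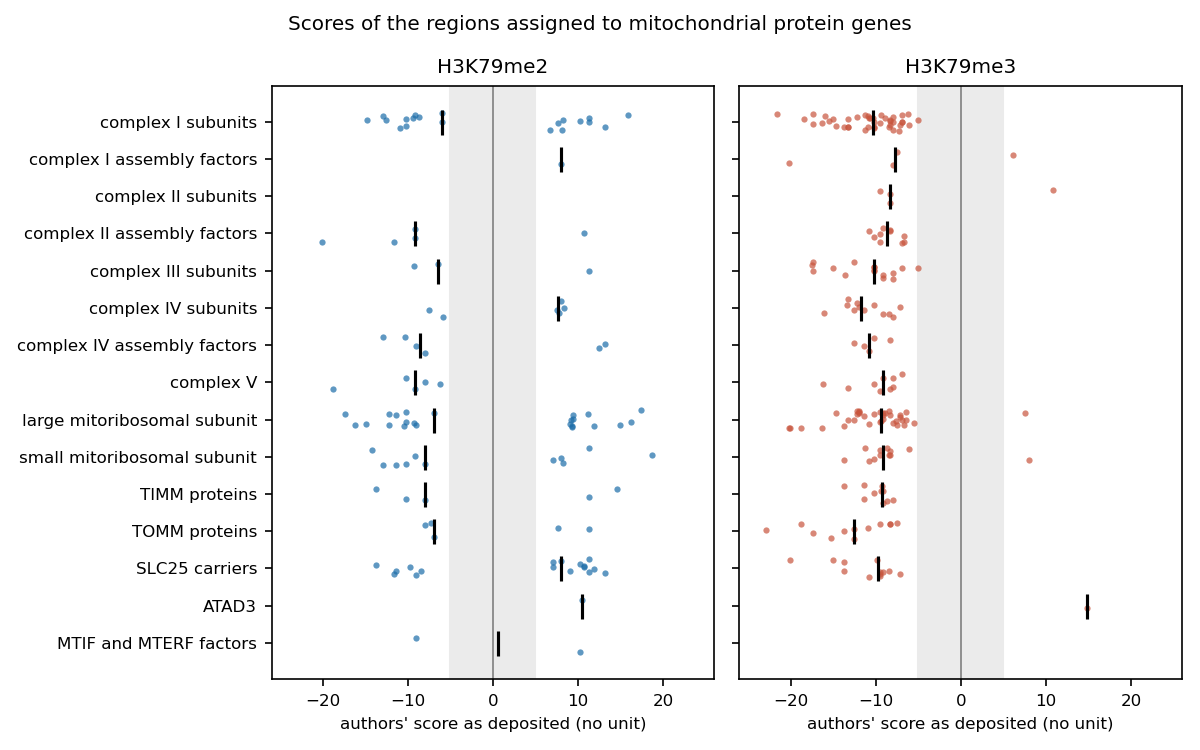
Authors' scores as deposited (x axis, no unit) of each member region by family, with H3K79me2 on the left and H3K79me3 on the right; bars mark family medians and the grey band marks sizes under 5, where the tables hold no region. H3K79me3 regions lie left of the band except for 5, and H3K79me2 regions lie on both sides, 56 negative and 51 positive.

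The 69 members with an H3K79me2 region held 107 regions, 56 negative and 51 positive. The negative share was 52.3% (interval 43.0% to 61.6%), beside 55.3% of 8746 regions in the whole table. Members had only negative regions in 34 genes, only positive regions in 26, and both in 9. The median score was -6.23 in the authors' deposited table, beside -6.95 over the whole table, but scores of small size are not listed, so a median near the gap can jump from one side to the other. The median size, 10.19 in the authors' deposited table, was the same for members and for the whole table. Most members, 47 of 69 (68.1%), had a single H3K79me2 region, beside 53.3% of genes in the whole table. For H3K79me3 it was 43 of 82 (52.4%), beside 46.7%. The members' scores for H3K79me2 ran from -20.12 to 18.64 in the authors' deposited table, against -29.08 to 31.51 over the whole table.

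Complex I subunits had 18 H3K79me2 regions, 9 of each sign, with each region counted once. Without NDUFA4, now counted with complex IV, there were 17, of which 9 were negative and 8 positive. A pair of negative regions is assigned to both NDUFC2 and the readthrough gene NDUFC2-KCTD14. NDUFS4, an accessory subunit whose loss is a known cause of Leigh syndrome, had 5 intron regions scored 13.19, 11.34, 10.19, 15.88 and -12.52 in the authors' deposited table (first start 52861126, last end 52878042, on chromosome 5). It had no H3K79me3 region. NDUFB9 had 3, all negative, scored -9.40, -14.80 and -10.89 in the authors' deposited table. NDUFC1, a small accessory subunit, had 2 positive regions, and NDUFA1 and NDUFA4 had 1 positive region each. NDUFS7, an iron-sulfur subunit near the quinone site, had 1 region scored -12.87 in the authors' deposited table. Signs thus differed between subunits of the same complex, and within NDUFS4.

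Complex V differed from complex I in that all 5 of its H3K79me2 regions were negative. ATP5J, a subunit of the stalk, had the second largest size of any member, -18.80 in the authors' deposited table (chromosome 21, 27106746 to 27106813). That region is annotated to an ATP5J intron and to the promoter of GABPA, which encodes an ETS factor, so it cannot be given to either gene alone. ATP5A1 had a promoter region scored -9.17 in the authors' deposited table. ATP5F1, ATP5G3 and ATP5S had 1 negative region each. The current symbol of ATP5S no longer has the prefix, and without it complex V had 4 H3K79me2 regions. With 5 regions the uniform sign is a small count, and it was not tested.

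Complex IV subunits had 6 H3K79me2 regions, 4 positive and 2 negative. COX6A1 had 2 positive regions, scored 8.41 and 8.0 in the authors' deposited table, COX7A2 and COX7A2L 1 positive region each, and COX5A and COX6C 1 negative region each. None reached a size of 10. The assembly factor COX10, which makes heme O for complex IV, had 3 negative regions scored -8.0, -12.87 and -9.08 in the authors' deposited table. COX16 had 3 of mixed sign, 13.21, -10.37 and 12.52 in the authors' deposited table, all shared with SYNJ2BP-COX16. In complex III, UQCR10 was positive at 11.34, and UQCRC2 (at its promoter) and UQCRFS1 were negative at -9.32 and -6.48, in the authors' deposited table for H3K79me2. Complex II subunits had none. SDHAF3 had the lowest H3K79me2 score of any member, -20.12 in the authors' deposited table (chromosome 7, 96754338 to 96754465), and 2 further negative regions. SDHAF2 had 1 of each sign, -9.17 and 10.67 in the authors' deposited table.

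The mitoribosome had 33 H3K79me2 regions in 19 genes, 17 negative and 16 positive. MRPS21, a small subunit protein, had the highest score of any member, 18.64 in the authors' deposited table (chromosome 1, 150268442 to 150268510), with 2 more positive regions of 8.0 and 11.34. MRPL33 followed at its promoter with 17.38 in the authors' deposited table. MRPL54 had a promoter region scored 16.22 in the authors' deposited table, shared with APBA3. These positive values had negative counterparts. MRPL48 had a region scored -17.39 in the authors' deposited table (chromosome 11, 73499818 to 73499945), and MRPL35 had 2, scored -10.25 and -14.96. MRPL13, on chromosome 8, had 5 regions scored -16.22, -12.19, -10.19, 9.25 and -10.43 in the authors' deposited table, the last at a promoter shared with MTBP. MRPL1 had 3 of each sign, with scores from -9.32 to 14.96 in the authors' deposited table. MRPS14, a small subunit protein, had a promoter region scored -14.21 in the authors' deposited table. MRPS28 and MRPS6 each had 1 region of each sign. MRPL46 and MRPS11 share a single region, scored -11.34 in the authors' deposited table, at the promoter of the first and in an intron of the second.

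Import genes were mixed for H3K79me2: the TIMM genes had 3 negative and 2 positive regions, and the TOMM genes the same counts. The TIMM17B region, at a promoter shared with PQBP1, had a score of 14.53, and the TIMM9 region one of -13.73, in the authors' deposited table. TIMM17B belongs to the inner membrane translocase and TIMM9 to the small chaperones of the intermembrane space. TOMM7, a small stabilising subunit of the outer membrane complex, was scored 11.34 in the authors' deposited table. The SLC25 carriers had 11 positive and 6 negative regions. SLC25A13, the aspartate/glutamate carrier citrin, had 5 regions over 64.1 kb, all positive, scored 11.34, 7.11, 10.67, 11.34 and 10.22 in the authors' deposited table. It had no H3K79me3 region. SLC25A37 had 2 negative and 1 positive. SLC25A40 had 2 negative regions of -11.60 and -13.73 in the authors' deposited table, the latter also assigned to DBF4. Without SLC25A13, the carriers' H3K79me2 regions were 6 positive and 6 negative. MTERF1, a factor that binds mitochondrial DNA and can stop transcription there, was the only member of the MTIF and MTERF prefixes, with scores of 10.19 in an exon and -9.08 at its promoter in the authors' deposited table for H3K79me2.

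Regions of both marks were found in 35 members, which is 50.7% of the members with H3K79me2 regions and 42.7% of those with H3K79me3 regions. Over the whole tables these shares were 56.2% and 50.9%. Both marks were wholly negative in 19 of the 35 genes. ATAD3B and NDUFAF2 were positive in both, which makes them the only members with no negative region among the 35. In 7 genes, H3K79me2 regions were only positive and H3K79me3 regions only negative: COX7A2, COX7A2L, MRPL33, NDUFB6, SLC25A33, TOMM70A and UQCR10. In another 5, COX16, MRPL13, MRPS28, SDHAF2 and SLC25A37, H3K79me2 had both signs and H3K79me3 only negative ones. MRPL1 had both signs in both marks. MRPS18C had a negative H3K79me2 region and both signs of H3K79me3. The marks come from separate libraries, and since nearly all H3K79me3 regions are negative, a shared or an opposite sign mostly follows that of H3K79me2. The shares of these sign combinations over all genes with both marks are not given here, so they are not shown to be particular to the members.

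**Figure D4:**
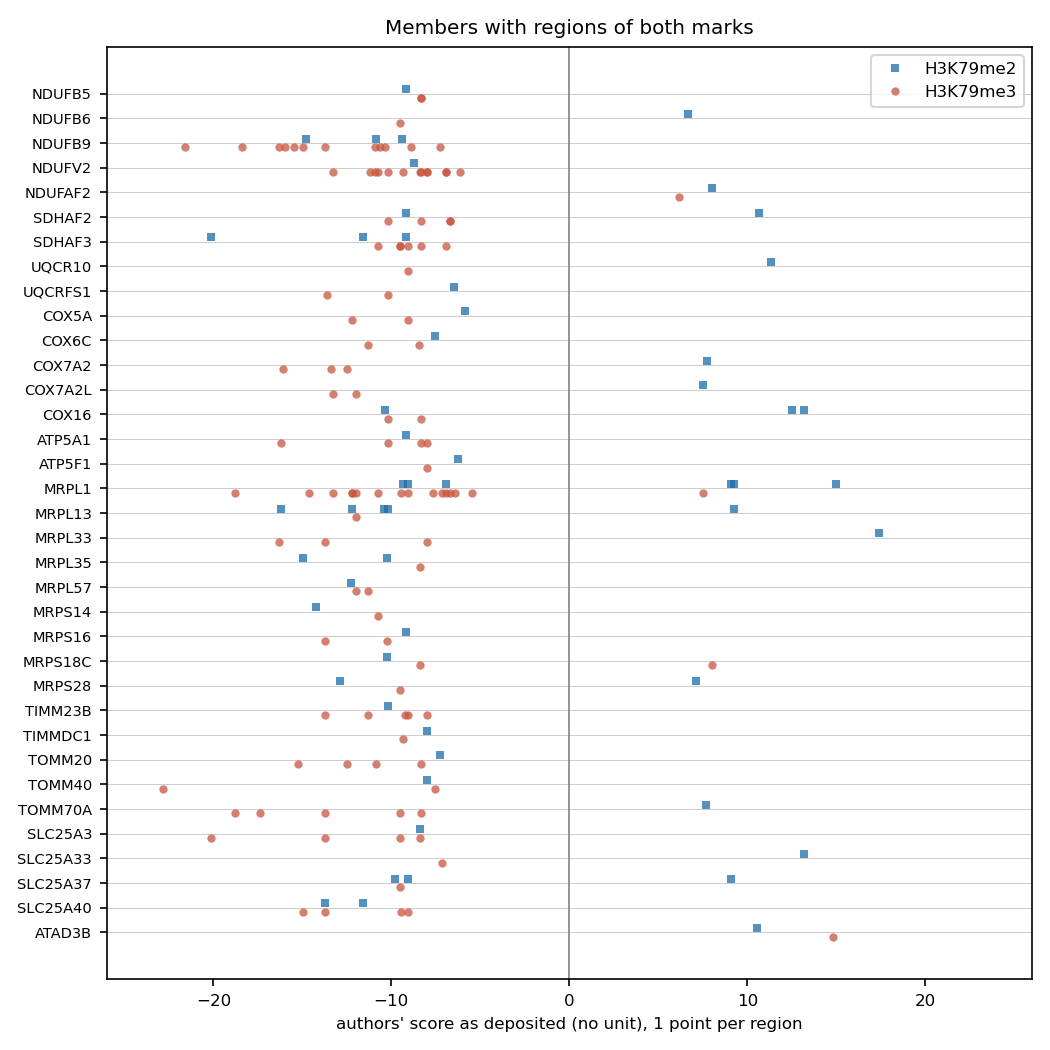
Scores as deposited (x axis, no unit) of the 35 members with regions of both marks, 1 row per gene and 1 point per region, with H3K79me2 as squares and H3K79me3 as circles. In 7 genes all squares lie right of 0 and all circles left of it, and ATAD3B and NDUFAF2 lie wholly to the right.

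Among the members, 3 pairs of H3K79me2 and H3K79me3 regions shared at least 1 base, in 2 genes. These were 2.80% of the members' H3K79me2 regions (interval 0.958% to 7.92%), and over all 8289 H3K79me2 regions assigned to a gene the share was 1.81%, so little overlap was a feature of the tables as a whole. In NDUFB9 the pairs shared 123 and 64 bases and both regions of each pair were negative. In MRPL1 a pair shared 54 bases with opposite signs, 9.09 for H3K79me2 and -6.95 for H3K79me3 in the authors' deposited tables (78784642 to 78784782 and 78784728 to 78784800 on chromosome 4). Within 5 kb of an H3K79me3 region of the same gene lay 36 of the 107 H3K79me2 regions, in 27 genes, of which 24 were negative and 12 positive. This share, 33.6% (interval 25.4% to 43.0%), was near the 37.7% over all assigned H3K79me2 regions. In SLC25A3 the nearest regions of the marks, both negative, were 30 bases apart. In COX7A2 the positive H3K79me2 region lay between negative H3K79me3 regions, 131 bases from the nearest. In COX7A2L it was again flanked on both sides, 597 and 669 bases away, by negative H3K79me3 regions. Opposite signs were thus also found at close range, as the maps of regions along NDUFB9, NDUFV2, MRPL1 and COX7A2 show.

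**Figure D5:**
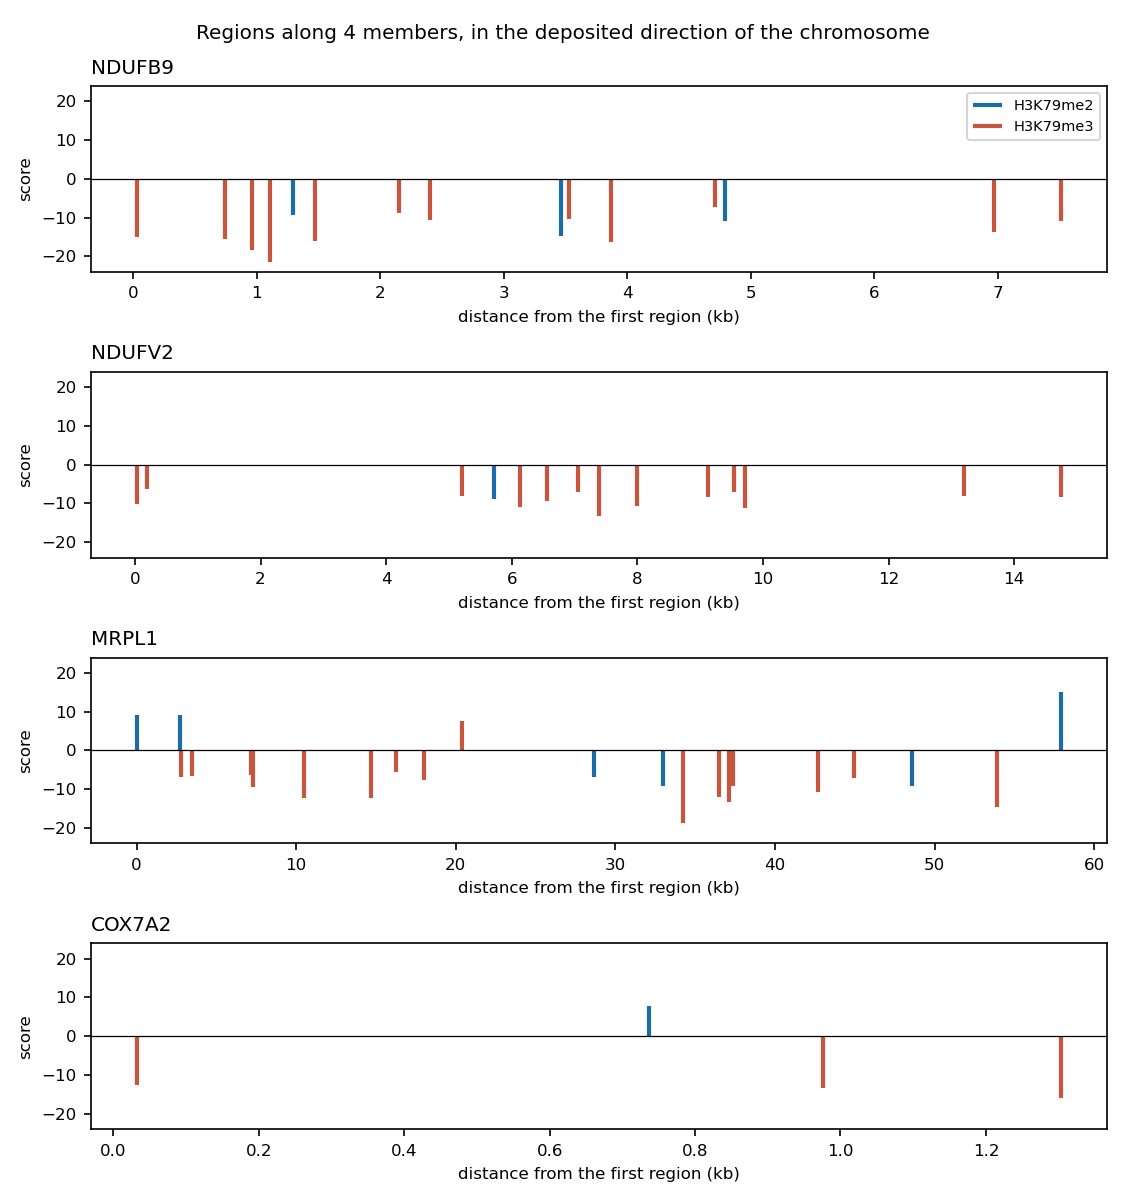
Regions of 4 members along the chromosome, with the distance of each region's centre from the first region in kb (x axis) and its score as deposited (y axis, no unit); bar widths are not to scale. NDUFB9 and NDUFV2 have negative regions only, MRPL1 has both signs in both marks, and the positive H3K79me2 region of COX7A2 sits between negative H3K79me3 regions.

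Most member regions lay in introns, 87.9% for H3K79me2 and 89.1% for H3K79me3, beside 95.5% and 94.7% of all regions assigned to a gene. Promoter regions were 13 of 107 for H3K79me2 (12.1%, interval 7.24% to 19.7%), beside 5.85% over the table, and 19 of 184 for H3K79me3 (10.3%, interval 6.71% to 15.6%), beside 8.97%. Of the promoter regions, 7 of 13 were negative for H3K79me2 and 18 of 19 for H3K79me3. The exception was the SDHA region, which was also assigned to CCDC127. Regions in the flanks of CpG islands, called shores, made up 25.2% for H3K79me2, beside 12.3%, and 38.0% for H3K79me3, beside 20.0%. Regions also assigned to another gene were 18.7% for H3K79me2, beside 6.88%, and 27.2% for H3K79me3, beside 9.28%. Member regions had median widths of 88 bases for H3K79me2 and 82.5 for H3K79me3, beside 88 and 85 over the whole tables. The part that short gene length has in these position shares was not tested.

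Chromosome 8 held 15 of the 107 H3K79me2 regions (14.02%) and 21 of the 184 H3K79me3 regions (11.4%), beside 6.48% and 5.28% over the whole tables. These are regions of NDUFB9, MRPL13, UQCRB, COX6C, MRPS28, NDUFAF6, SLC25A32 and SLC25A37. NDUFB9 alone held 12 of the 21 H3K79me3 regions, so that share rests largely on 1 gene. MRPL13 held 5 of the 15 H3K79me2 regions. The part of the chromosome in the results of these genes was not tested. Without it the negative share was 48.9% for H3K79me2 and 96.9% for H3K79me3.

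Other genes with mitochondrial roles, from 6 lists of 121 genes that do not carry the prefixes, were counted in the same way. The lists were written with earlier results of these data known, so their shares are not independent of them. They were also not read by gene length. Of these genes 47 (38.8%) had an H3K79me3 region, beside 18.0% of all protein-coding genes. They held 117 negative regions and 1 positive, and 97.5% of all H3K79me3 regions were negative. LRPPRC, which stabilises mitochondrial messenger RNAs, had 5 with a lowest score of -24.21 in the authors' deposited table, beyond that of any member. Its partner SLIRP had 3, and TFAM, which packages mitochondrial DNA, had 2. The list of mitochondrial DNA maintenance and transcription had H3K79me3 regions in 9 of 16 genes, and that of chaperones, proteases and dynamics in 15 of 26, with 8 regions in the protease LONP1. Only 3 of 25 translation factors and tRNA synthetases had one. Among 12 regulators of biogenesis 5 had one, with 17 regions in YY1, 7 in PPRC1 and 2 in GABPB1, all negative.

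For H3K79me2, 49 of the 121 genes (40.5%) had a region, beside 17.0% of all protein-coding genes. These regions were 54 negative and 31 positive, and 55.3% of all H3K79me2 regions were negative. Citric acid cycle genes had 8 negative and 4 positive regions in 6 of 19 genes, with DLD, a pyruvate dehydrogenase component, at -14.96 in the authors' deposited table. VDAC2, a channel of the outer membrane, had 3 positive regions, and PAM16, a part of the import motor, 2 negative ones with a lowest score of -18.80 in the authors' deposited table. GABPA had 2 negative regions, one of them the region shared with ATP5J. The cristae protein CHCHD3 had 8, of which 6 were negative. Both signs of H3K79me2 and the near-uniform sign of H3K79me3 were therefore also found outside the families named by the rule.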

How the data were processed

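ChIP-seq of both H3K79 marks was available for MOLM-13 cells carrying ShLAMP5-AS1 or ShNC, with 1 ChIP and 1 input library per group. Per the submitters' processing notes, the authors used Bowtie2, MACS2 2.1.1, bedtools and DESeq2. The notes name GRCh38, hg38 and hg19, with no role or order, and the step that gave each region its signed score is not given in the sources used here. The deposited score has no unit per the file headers. The tables hold no reads, so depth and precision per library are unknown.

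A region counted for every gene in its 7 annotation columns (promoter, upstream 2 kb, exon, intron, downstream 2 kb and the untranslated regions, columns 6 to 12). Of the 116 members, 106 matched a current RefSeq symbol and 10 an older one. Families were counted over RefSeq protein-coding genes (GRCh38.p14), with 95% Wilson intervals, which cover counting error only. Overlap needed 1 base. Counts were made in Python 3.11.15 (pandas 2.3.3, numpy 2.4.6), intervals with scipy 1.17.1 and figures with matplotlib 3.10.9, and the counting steps were tested on simulated data. Members and gene lists were chosen with earlier results of these data known. Every member could be named. Those described in full had, in a mark, 1 of the 10 largest scores, at least 3 regions, a positive H3K79me3 region or both signs, or had regions of both marks. Up to 4 genes per other list and mark could be named, and a gene this would name is not reported here.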

Additional observations from a re-analysis of the deposited data

How the results depend on the processing

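The results were recomputed with fewer annotation columns, a score size of at least 10, regions of 1 sign within 5 kb merged, 1 value per gene, the member with most regions left out, no readthrough or noncoding symbols, and autosomes only. Chosen after the data were seen were leaving out chromosome 8, leaving out regions also assigned to a non-member gene, and genes under 20 kb. The negative share stayed between 48.9% and 53.8% for H3K79me2 and between 94.8% and 97.8% for H3K79me3. At a size of at least 10, members with a region fell to 41 for H3K79me2 and 48 for H3K79me3, with both marks to 12, and the H3K79me3 median score was -12.52, since fewer regions are kept; the H3K79me2 median was then 0, with 50% of regions negative. The H3K79me2 median turned positive without chromosome 8 (6.895) and without regions also assigned to a non-member gene (0.42). This arises because the signs are nearly balanced around a gap with no scores. A reciprocal overlap of 50% left 1 pair. With the members named in either table as the denominator, 59.5% had an H3K79me2 and 70.7% an H3K79me3 region. Under 20 kb, the H3K79me2 share was 19.6%. Apart from these, the recomputed values kept their sign and moved by less than 1.5 times. No paired analysis was possible because each group has 1 library and nothing was tested.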
